A study of Homo sapiens with 5 samples.

Results

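Nuclear genes encode nearly all mitochondrial proteins, and their products enter through a set of protein translocases. The genes described here are those of mitochondrial protein import (TOMM, TIMM, SAMM50, MTX, PAM16, GRPEL and PMPC genes) together with the CHCHD, MICOS and prohibitin genes, chosen by current gene symbol from the array annotation. The symbols named 46 protein-coding RefSeq genes, of which 40 had a probe in the deposited table, out of 8127 genes measured in all. PHB2, TIMM13, TIMM23B, TIMM50, TOMM20L and TOMM6 were not analysed here. Where a gene had several probes, the probe of highest mean signal was taken.

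The arrays measured RNA from HEK293T, a human line from embryonic kidney with the SV40 large T antigen. In the pull-down group (2 arrays), cells were transfected with biotin-labelled miR-182-5p and the microRNA was isolated with its bound transcripts on streptavidin beads. In the other group (3 arrays), the transfected molecule is given as mock and the pull-down as none, although the protocols attached to all arrays name the same 200 pmol of labelled duplex, the same harvest at 24 h and the same beads. Bead isolation and the microRNA are therefore not separated, and the question of which transcripts associate with miR-182 is answered only for both together. Whether the arrays within a group stem from separate cultures is not in the labels. The p-values therefore reflect the array-to-array spread alone, which may be technical.

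Proteins bound for the mitochondrion cross the outer membrane through the TOM complex. Barrel proteins are then inserted by the SAM complex, proteins with a presequence pass the TIM23 complex and its motor, and carrier proteins are led by small TIM chaperones to TIM22. Presequences are cut off in the matrix by the processing peptidase PMPCA-PMPCB. Small proteins with paired cysteine motifs, the CHCHD proteins among them, are oxidised and trapped in the intermembrane space by CHCHD4. MICOS shapes the cristae, and prohibitins form rings in the inner membrane.

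The transfected strand is shown first because pairing of its seed with a transcript is the usual basis of target binding. In the sequences below, from RefSeq on GRCh38.p14, capitals mark the seed, bases 2 to 8. miR-182-5p lies at chr7:129770447-129770470 on the minus strand, and miR-182-3p, the other arm of the same hairpin, at chr7:129770406-129770426. Of 2370 mature human microRNA names in the table, no other had the seed of miR-182-5p, and 2 others, miR-96-5p and miR-1271-5p, shared its bases 2 to 7. Sites for the seed in the transcripts of the 40 genes were not analysed here.
miR-182-5p: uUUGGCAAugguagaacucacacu
miR-182-3p: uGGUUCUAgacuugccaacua
miR-96-5p: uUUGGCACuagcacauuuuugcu

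Values are given on the log2 scale as the authors deposited them (the base is inferred from their range), and differences are pull-down minus mock. The lowest value on an array lay between 8.0 and 8.04, and values within 0.1 of it are called at the lower limit here, where differences are compressed. Such values made up 14.9% and 15.4% of probes on the pull-down arrays and 19.9% to 26.7% on the mock arrays. Across the 40 genes, r was 0.973 to 0.988 within a group and 0.856 to 0.908 between the groups, a description only, since genes are not independent replicates. Mock array 2 was the highest mock array for 25 of the 40 genes (62.5%), against 31.8% of all genes, and it was the lowest for 7. The structural gene VIM, known in HEK293T, was high at 13.40 ± 0.51 in the pull-down and 13.52 ± 0.11 in the mock, whereas KRT8, NEFL and NEFM had means under 9 and KRT18 was at the lower limit on all 5 arrays. Of 8 markers of other cell types only COL1A1 had a probe, at the lower limit on every array.

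A call required an adjusted p below 0.05 (limma, Benjamini-Hochberg over the 8127 genes). Among the 40 genes, 5 were higher (CHCHD4, GRPEL2, CHCHD7, PHB1 and TIMM10B), 9 were lower (TOMM5, PMPCA, MICOS13, MTX1, SAMM50, TOMM22, CHCHD1, TOMM34 and CHCHD5) and 26 were not called. The share of all genes called was 20.2% higher, 15.0% lower and 35.1% in either direction, against 12.5%, 22.5% and 35.0% of the 40 genes, so the total share was at the background. Called differences of at least 2-fold numbered 2 higher and 4 lower, where 5.28% and 5.12% of all genes passed. The median difference of the 40 genes was -0.04, beside 0.02 for all genes, and differences ran from -1.28 to 1.34. Arrays of the groups did not overlap for 25 of the 40 genes (62.5%), against 65.1% of all genes. Of these 25, 11 lay higher in the pull-down and 14 lower, where 35.0% and 30.1% of all genes did so. Leaving out 1 array left 2 to 4 genes higher (2 without pull-down array 1, 3 without mock array 1) and 4 to 10 lower (4 without pull-down array 2 and 6 when pull-down array 1 was dropped).

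**Figure D1:**
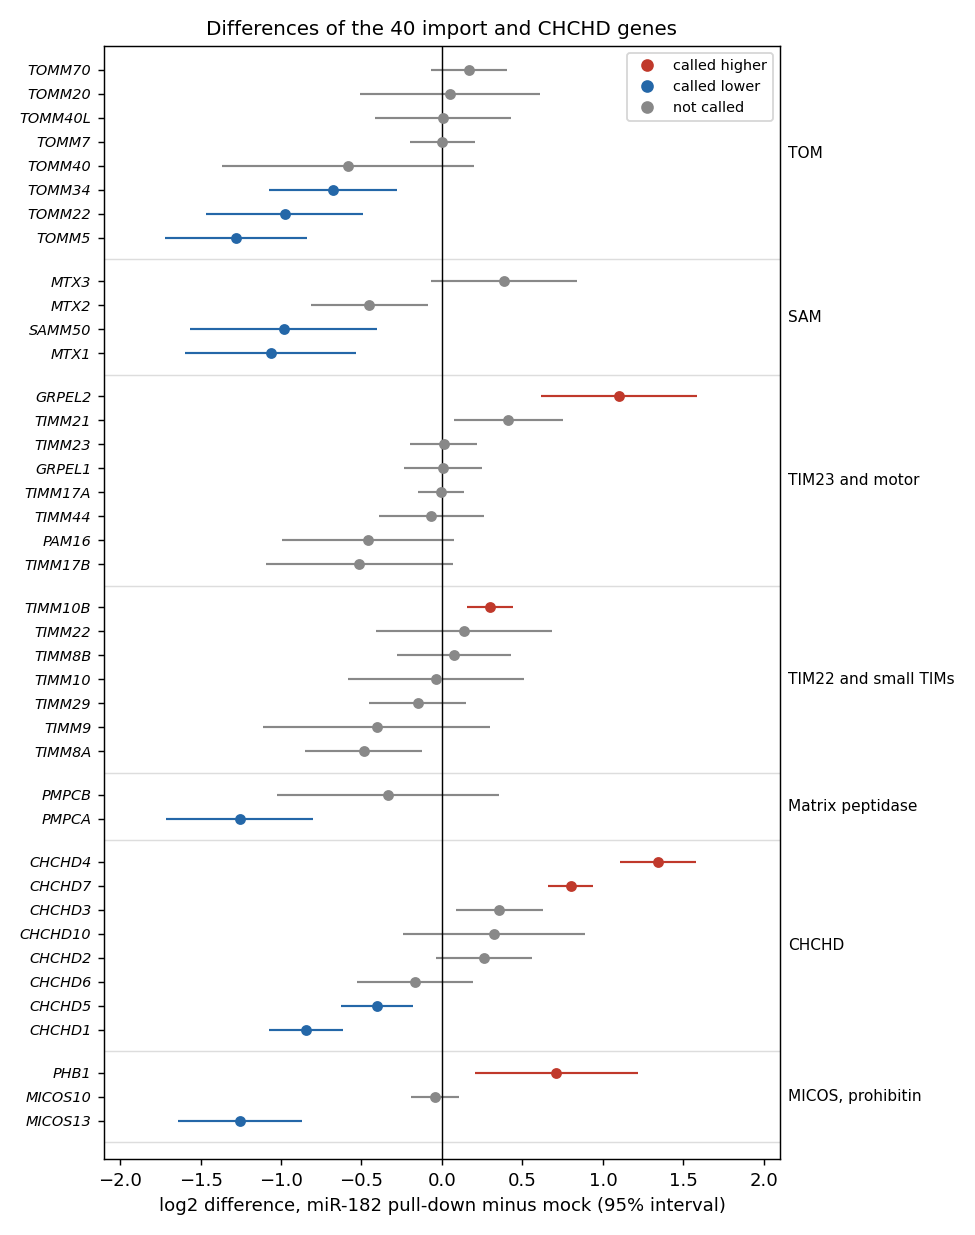
Log2 difference (miR-182 pull-down minus mock) of each of the 40 genes, grouped by role, with the 95% confidence interval from limma. TOMM34, a cytosolic cochaperone, is placed with the TOM genes by its name. The 5 genes called higher lie between 0.30 and 1.34 and the 9 called lower between -1.28 and -0.40, and the grey genes were not called.

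The signal level bears on these shares. The 29 genes with a mean of at least 9 included 4 higher and 7 lower, or 13.8% and 24.1%, and all genes at that level included 21.5% higher and 24.9% lower. Below a mean of 9, 1 of 11 was higher and 2 were lower, against 19.0% and 6.10% of all genes there. The 40 genes had a median level of 9.92, against 8.90 for all genes. At the upper level the share of lower calls was thus close to that of all genes, and the share of higher calls was smaller. Whether level accounts for the split was not tested.

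**Figure D2:**
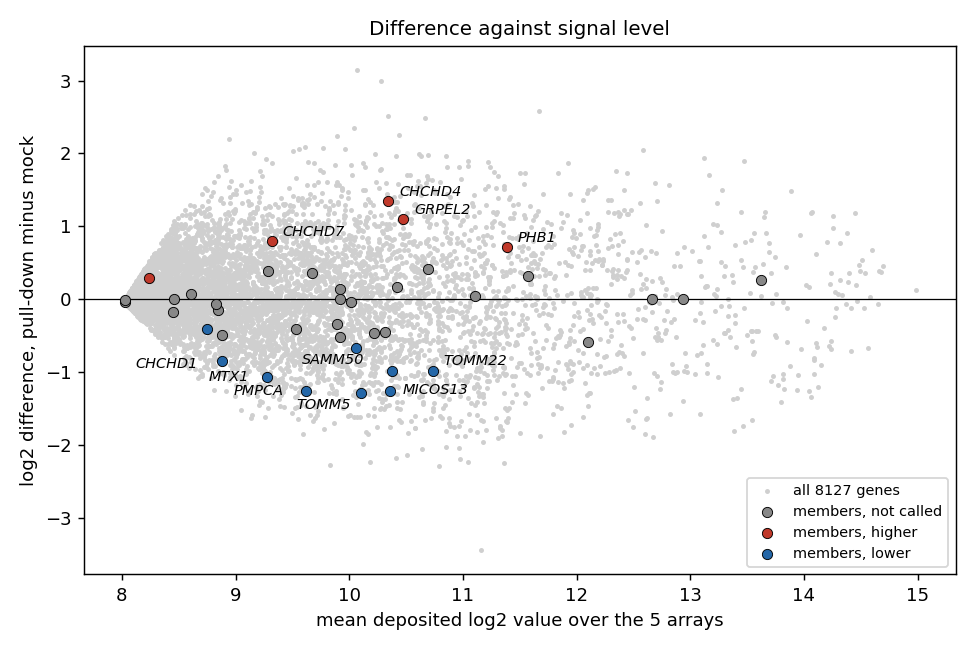
Log2 difference (pull-down minus mock) against the mean deposited log2 value over the 5 arrays, for all 8127 genes (grey) and the 40 import and CHCHD genes. The spread narrows to 0 at the lower limit near 8, and the coloured genes lie inside the cloud of all genes, between -1.28 and 1.34.

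Of the 8 genes with a TOMM name, 3 were called lower. The other 5 were not called, with differences of -0.58 to 0.17. TOMM5, a small subunit that stabilises the TOM pore, had the lowest difference of the 40 genes. It read 9.42 and 9.25 on the pull-down arrays and 10.83, 10.68 and 10.34 on the mock arrays. Both pull-down arrays were below every mock array, by a log2 difference of -1.28 (SE 0.17, adjusted p = 0.00822), which is 2.43-fold lower. TOMM22, a receptor that also organises the complex, was at 10.40 and 9.90 in the pull-down and 11.07, 11.31 and 10.9995 in the mock. Its groups did not overlap either, with a difference of -0.98 (SE 0.18, adjusted p = 0.0189), but the adjusted p was 0.0540 without pull-down array 2, 0.0598 without mock array 1 and 0.0588 without mock array 2.

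TOMM34 carries the TOMM name but is a cytosolic cochaperone that binds heat shock proteins. It was at 9.72 and 9.59 against 10.15, 10.59 and 10.26, with every pull-down value below every mock value. The difference was -0.67 (SE 0.15, adjusted p = 0.0290), and it was no longer called in the absence of pull-down array 1 (adjusted p = 0.0949), of pull-down array 2 (0.129) or of mock array 3 (0.0550).

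The pore and the main receptors were not called. TOMM40, the barrel through which precursors pass, read 11.66 and 11.84 in the pull-down and 12.39, 12.78 and 11.83 in the mock. The groups overlapped narrowly, since mock array 3 was as low as pull-down array 2, and the difference was -0.58 with a 95% interval of -1.37 to 0.20. Without mock array 3 it was -0.84 and called (adjusted p = 0.0365). TOMM40 was also called when only genes with a mean of at least 9 were fitted (adjusted p = 0.0318). TOMM20, a presequence receptor, was at 11.33 and 10.94 against 11.35, 10.79 and 11.12, which overlap throughout. TOMM70, a receptor for carrier precursors and chaperones, was at 10.54 and 10.51 against 10.27, 10.49 and 10.30, a difference of 0.17 with an interval of -0.07 to 0.41. TOMM7, a small subunit, differed by 0.00 (interval -0.20 to 0.20) at a mean of 12.93, and TOMM40L, a relative of TOMM40, by 0.01 at a mean of 8.46. Of the 8 TOMM genes, 7 had a mean of at least 9, where 24.9% of all genes were lower. The 3 lower genes, with the cytosolic TOMM34 among them, are 37.5% of the 8. TOMM40L, below a mean of 9, is counted in the 8. The lower calls numbered 1 without pull-down array 2 (TOMM5) and 2 to 3 with another array left out.

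In the SAM complex, the barrel protein SAMM50 and its partner MTX1 were lower. MTX1, a metaxin at the cytosolic face, was at 8.63 and 8.64 in the pull-down and 9.51, 10.07 and 9.51 in the mock. The pull-down arrays were below all mock arrays, the difference was -1.06 (SE 0.20, adjusted p = 0.0190), and a second, dimmer probe gave -0.68. SAMM50 was at 9.65 and 9.93 against 10.52, 11.15 and 10.66, again without overlap, with a difference of -0.98 (SE 0.22, adjusted p = 0.0293). Both calls ended when either pull-down array was left out, with adjusted p = 0.0908 and 0.0845 for MTX1 and 0.135 and 0.0799 for SAMM50, and SAMM50 had 0.0544 without mock array 3.

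MTX2, the metaxin that pairs with MTX1, had a difference of -0.45 (SE 0.14, adjusted p = 0.0639), and its other probe gave -0.31. It passed the threshold without pull-down array 1 (-0.64, adjusted p = 0.0365), after centring each array on its median (0.0390) and with either other choice of probe (0.0366 and 0.0218). The third metaxin, MTX3, had a positive difference of 0.38 (interval -0.07 to 0.84). In the SAM group 2 of 4 genes were therefore lower and 0 higher, at a level where 24.9% of all genes were lower and 21.5% higher, and 0 were lower without pull-down array 2, while MTX2 alone was lower without pull-down array 1.

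Among the genes of the TIM23 complex and its motor that the symbols name, GRPEL2 was higher and the other 7 were not called. The called share was 12.5%, against 35.1% of all genes, and it does not cover the whole complex. Of import partners outside the symbols, the TIM23 subunit ROMO1 (-0.99) and the matrix Hsp70 HSPA9 (-1.21) were lower. DNAJC19 (0.26), from the same list, was not called. GRPEL2, a nucleotide exchange factor for the matrix Hsp70, read 11.36 and 10.91 in the pull-down and 10.07, 9.84 and 10.20 on the mock arrays. Both pull-down arrays were above every mock array, by 1.10 (SE 0.18, adjusted p = 0.0138) or 2.14-fold, and the adjusted p was 0.0516 without pull-down array 1. Its relative GRPEL1 was at 9.90 and 9.94 against 9.80, 10.04 and 9.90, a difference of 0.01 with an interval of -0.23 to 0.25.

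TIMM23, the channel subunit, was at 12.74 and 12.59 in the pull-down and 12.71, 12.67 and 12.59 in the mock, so the groups overlapped. The difference was 0.01 (interval -0.20 to 0.22), and its 3 dimmer probes gave 0.52, 0.11 and 0.12. TIMM23 has a near-identical copy, TIMM23B, whose transcripts its probes can share, so the value is uncertain. TIMM44, which tethers the motor to the channel, was at 8.74 and 8.83 against 8.66, 9.02 and 8.88, also overlapping. TIMM17A, the stress-regulated partner of TIMM23, read 8.04 and 8.01 against 8.02, 8.04 and 8.03, at the lower limit on all 5 arrays, so nothing can be read from its difference. TIMM17B, its relative, differed by -0.51 (interval -1.09 to 0.07) and PAM16, a motor subunit, by -0.46 (interval -0.99 to 0.07). Both passed the threshold without mock array 1 (adjusted p = 0.0226 and 0.0414). TIMM17B also passed when only genes with a mean of at least 9 were fitted (adjusted p = 0.0448). TIMM21, which links TIM23 to respiratory chain assembly, differed by 0.41 (SE 0.13, adjusted p = 0.0677), with 0.63 at its other probe and a call without pull-down array 2 (adjusted p = 0.0380) and under quantile normalization (0.0453) or cyclic loess (0.0460), and with the mean of its probes (0.0120) or the dimmer probe (0.0138).

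In the carrier pathway 1 of 7 genes was called (14.3%), against 35.1% of all genes. The median level of the 7 was 8.88, and below a mean of 9 the shares of all genes were 19.0% higher and 6.10% lower. TIMM10B, a small TIM attached to TIM22, was at 8.41 and 8.43 on the pull-down arrays and 8.11, 8.15 and 8.11 on the mock arrays. The groups did not overlap, but 2 of the 3 mock values were at the lower limit and the difference of 0.30 (SE 0.06, adjusted p = 0.0179) is compressed. The call held with 1 array left out only for mock array 3, and adjusted p was 0.05002 to 0.0719 for the other 4. It also ended after median centring (0.0621) and quantile normalization (0.0700). TIMM22, the channel, read 10.07 and 9.93 against 9.97, 10.11 and 9.49, with a difference of 0.14 (interval -0.41 to 0.69). The other small TIM and TIM22 genes had differences of 0.08 for TIMM8B, -0.04 for TIMM10, -0.15 for TIMM29, -0.41 for TIMM9 and -0.49 for TIMM8A, the gene of deafness-dystonia syndrome. TIMM8A had adjusted p = 0.0522 and groups that did not overlap, and it was called after median centring (0.0446) and with the trended robust variance (0.0317). The TIMM9 difference became -0.68 on leaving out pull-down array 1, -0.13 on leaving out pull-down array 2 and -0.23 on leaving out mock array 3.

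In the matrix, 1 of the 2 subunits of the processing peptidase was called lower, at a level where 24.9% of all genes were lower. PMPCA, the subunit that binds presequences, was at 8.72 and 9.02 in the pull-down and 9.90, 10.36 and 10.11 in the mock. The groups were far apart, by -1.26 (SE 0.17, adjusted p = 0.00895) or 2.39-fold. PMPCB, the catalytic subunit, was at 9.46 and 9.93 against 10.44, 9.83 and 9.82, which overlap, with a difference of -0.34 (interval -1.02 to 0.35). Leaving out pull-down array 1 gave -0.10, pull-down array 2 gave -0.57 and mock array 1 gave -0.13.

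The CHCHD genes held the highest difference of the 40. CHCHD4, the oxidoreductase of intermembrane space import, was at 11.26 and 11.04 in the pull-down and 9.83, 9.83 and 9.75 in the mock. Every pull-down value exceeded every mock value by more than 1 unit, and the difference of 1.34 (SE 0.09, adjusted p = 0.00298) is 2.54-fold. CHCHD7, whose yeast counterpart serves cytochrome oxidase assembly, was at 9.80 and 9.79 against 8.99, 9.02 and 8.99. Its difference was 0.80 (SE 0.05, adjusted p = 0.00298), and the second probe gave 0.45 with 2 of 3 mock values at the lower limit.

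In the other direction, CHCHD1, a protein of the small mitochondrial ribosomal subunit, was at 8.31 and 8.44 in the pull-down and 9.20, 9.33 and 9.14 in the mock. The groups were separate, with a difference of -0.84 (SE 0.09, adjusted p = 0.00531). CHCHD5, a small intermembrane space protein, had a difference of -0.40 (SE 0.09, adjusted p = 0.0250). It was not called when pull-down array 1 was left out (adjusted p = 0.108), nor in fits lacking pull-down array 2 (0.0871) or mock array 2 (0.0685).

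CHCHD2, linked to Parkinson disease, had the highest signal of the 40 genes, at 13.79 and 13.76 against 13.33, 13.58 and 13.64. The pull-down arrays were slightly above the mock arrays, by 0.26 (interval -0.04 to 0.56), and it was not called. Its relative CHCHD10, linked to motor neuron disease, differed by 0.32 (interval -0.24 to 0.89) with mock array 1 below the other mock arrays (0.12 without it), and the MICOS subunits CHCHD3 and CHCHD6 by 0.36 (adjusted p = 0.0563) and -0.17. CHCHD3 was called under quantile normalization (adjusted p = 0.0483) and cyclic loess (0.0355).

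Of the remaining inner membrane genes, MICOS13, a subunit that joins the arms of the MICOS complex, was lower. It was at 9.55 and 9.67 in the pull-down and 10.76, 11.12 and 10.72 in the mock, without overlap, with a difference of -1.25 (SE 0.15, adjusted p = 0.00647). MICOS10, the core membrane-bending subunit, was at the lower limit on all 5 arrays. PHB1, a prohibitin, was at 11.90 and 11.73 against 10.92, 11.44 and 10.95. The groups did not overlap and the difference was 0.71 (SE 0.19, adjusted p = 0.0475), but the call ended with each array left out except mock array 2 (adjusted p = 0.103 to 0.192), and after centring each array on its median (0.0513).

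**Figure D3:**
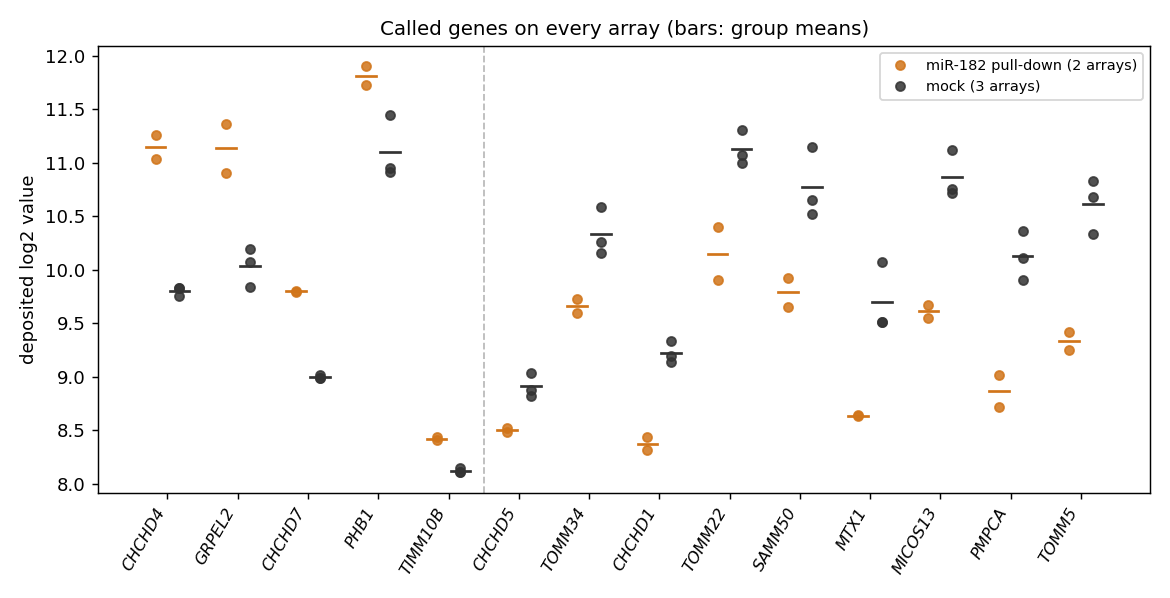
Deposited log2 values on every array for the 14 called genes, with 2 pull-down arrays (orange) and 3 mock arrays (black) a gene and bars at the group means. To the left of the dashed line both pull-down points lie above all mock points, and to the right both lie below.

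With any 1 array left out, 6 of the 14 called genes kept their call: CHCHD4, CHCHD7, CHCHD1, PMPCA, MICOS13 and TOMM5. Over the 5 fits with an array left out, CHCHD4 ranged from 1.23 to 1.46 and TOMM5 from -1.42 to -1.18. These 6 also passed under each other normalization, filter, probe choice and variance setting that tested them, but CHCHD7 and CHCHD1 were under the 2-fold threshold. None of the 14 changed direction in any alternative. Several of the genes have pseudogenes whose transcripts a probe can share. RefSeq lists 21 pseudogenes named after PHB1, 11 after CHCHD2, 6 after TOMM22, 5 after CHCHD4 and 3 after GRPEL2, so their values carry that uncertainty.

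Related genes were set side by side in 9 pairs, chosen after their values were seen, so the differences between their log2 differences are a description with no test. GRPEL2 minus GRPEL1 was 1.09, MTX3 minus MTX1 1.45, MTX2 minus MTX1 0.61, TIMM8B minus TIMM8A 0.56 and PMPCB minus PMPCA 0.92. TOMM40L minus TOMM40 was 0.59, CHCHD6 minus CHCHD3 -0.52 and CHCHD10 minus CHCHD2 0.06. TIMM17B minus TIMM17A was -0.51, with TIMM17A at the lower limit.

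Partners of import outside these 40 genes were taken from lists of known function. Of 13 measured import partners, 1 was higher and 5 lower (7.69% and 38.5%), with a median difference of -0.32. The shares of all genes were 20.2% higher and 15.0% lower, or 21.5% and 24.9% at a mean of at least 9, and these apply to the lists that follow as well, whose median levels were over 9 except among the inner membrane organisers. HSPA9, the matrix Hsp70 that GRPEL proteins serve, was lower (pull-down 11.16 ± 0.16, mock 12.38 ± 0.03, a difference of -1.21, SE 0.09, adjusted p = 0.00313). ROMO1, a TIM23 subunit (-0.99, SE 0.15), and the cytosolic chaperone HSPA8 (-1.84, SE 0.47, adjusted p = 0.0400) were lower as well. HSPA8 had 2 probes, and its pull-down arrays lay apart at 10.75 and 12.25. With either other choice of probe, 4 import partners were lower. MIPEP, which trims presequences after PMPCA-PMPCB, was the 1 higher gene (0.87, SE 0.08), named after its value was seen. Of 13 matrix chaperones and proteases, 4 were lower (30.8%) and 0 higher (median -0.13), with the protease subunits SPG7 at -0.95 (SE 0.21), AFG3L2 at -0.92 (SE 0.08) and LONP1 at -0.63 (SE 0.14). TRAP1, a mitochondrial Hsp90 chaperone named after its value was seen, had the largest difference of this list, 1.16 (SE 0.35, adjusted p = 0.0609), without overlap and not called. The higher count was 1 after median centring, with the filter at a mean of 9, with the trended robust variance and with the replicate block. With 1 array left out, 2 to 4 import partners (2 without pull-down array 1 or any mock array) and 1 to 2 chaperones and proteases (1 without either pull-down array or mock array 2) were lower.

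Among 6 inner membrane organisers, the MICOS subunit APOO was lower (-1.13, SE 0.12) as was STOML2, a scaffold that binds prohibitins (-1.04, SE 0.14), and neither gene had overlapping groups. IMMT, the largest MICOS subunit, was higher (0.64, SE 0.17, adjusted p = 0.0448), a call absent without pull-down array 2 or any 1 mock array. Of 12 other proteins with paired cysteine motifs, which depend on CHCHD4 for import, 6 were lower (50%) and 3 higher (25%), and the median was -0.32 at a median level of 10.96. The 3 largest called differences were those of the respiratory complex I subunits NDUFB7 (-1.34, SE 0.10) and NDUFS5 (-0.998, SE 0.09) and the copper chaperone COX17 (-1.10, SE 0.05). With 1 array left out 5 to 6 were lower and 0 to 2 higher (0 without pull-down array 1).

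Other nuclear gene lists of the mitochondrion had lower calls in larger shares than the 40 genes. The lists overlap, since NDUFB7, NDUFS5 and NDUFA8 are NDUF genes and were also counted among the proteins with paired cysteine motifs. Of 76 mitochondrial ribosomal protein genes 32 were lower (42.1%) and 11 higher, with a median of -0.43, and of 35 NDUF genes 15 were lower (42.9%) and 4 higher, with a median of -0.45. For the 40 genes here the share lower was 22.5% and the median -0.04, and among all genes with a mean of at least 9 the share lower was 24.9%. The median levels were 10.19 for the ribosomal and 10.77 for the NDUF genes, against 9.92 for the 40. The difference between these lists was not tested. Without pull-down array 1, 19 of the ribosomal and 7 of the NDUF genes were lower, and without pull-down array 2, 27 and 6.

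Promoters were read because members of these complexes are known to share nuclear respiratory factor sites. A RefSeq window from 250 bases before to 50 bases after the gene start (GRCh38.p14) was found for 36 of the 40 genes. These were 4 of the 5 higher and 8 of the 9 lower, among others, and 8 short motifs were searched on both strands. The ETS core CCGGAAG, recognised by NRF-2 (GABP), was in 15 of 36 windows (41.7%), against 24.3% of measured genes and 10.3% of all windows. The NRF1 core GCATGCGC was in 5 of 36 (13.9%), against 7.16% and 3.05%. None of the 36 held TATAAA (7.53% of measured genes) or TTGCCAA, the complement of the miR-182-5p seed (2.86%). Most of each window lies before the transcript, so the count for TTGCCAA does not bear on seed sites in the transcripts. CCAAT was in 18 of 36 (45.0% of measured genes), CCGCCC in 58.3% (79.2%), AAGATGGC in 8.33% (7.37%) and TCGCGAGA in 2.78% (3.44%). The ETS core lay in 2 of 4 higher, 3 of 8 lower and 10 of 24 uncalled genes, and genes with it had a median difference of -0.04 and those without it -0.17.

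The windows of CHCHD4 and GRPEL2, the higher genes with the largest differences, and of TOMM22, chosen among the lower genes because it holds an ETS core, are shown with NRF1 and ETS cores of either strand in capitals. CHCHD4 (chr3:14124821-14125120, minus strand) has the NRF1 core on both strands, overlapping, from 152 bases before the start. GRPEL2 (chr5:149345249-149345548, plus strand) has 3 ETS cores, beginning 147, 87 and 66 bases before the start. TOMM22 (chr22:38681707-38682006, plus strand) has 1 on the opposite strand, from base 2 of the gene. A match is a description of the letters and not a bound site.
CHCHD4: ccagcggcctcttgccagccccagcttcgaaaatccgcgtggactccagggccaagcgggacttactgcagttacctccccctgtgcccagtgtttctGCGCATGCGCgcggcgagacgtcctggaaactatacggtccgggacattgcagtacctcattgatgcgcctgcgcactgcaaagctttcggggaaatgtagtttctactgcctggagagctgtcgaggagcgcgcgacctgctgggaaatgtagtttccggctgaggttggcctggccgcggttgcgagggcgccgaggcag
GRPEL2: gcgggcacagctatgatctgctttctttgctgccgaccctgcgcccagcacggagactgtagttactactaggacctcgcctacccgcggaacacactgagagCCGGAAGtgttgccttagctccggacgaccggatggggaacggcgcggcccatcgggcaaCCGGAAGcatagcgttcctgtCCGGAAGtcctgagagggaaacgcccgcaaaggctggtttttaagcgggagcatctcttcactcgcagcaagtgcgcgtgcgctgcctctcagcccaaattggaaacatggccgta
TOMM22: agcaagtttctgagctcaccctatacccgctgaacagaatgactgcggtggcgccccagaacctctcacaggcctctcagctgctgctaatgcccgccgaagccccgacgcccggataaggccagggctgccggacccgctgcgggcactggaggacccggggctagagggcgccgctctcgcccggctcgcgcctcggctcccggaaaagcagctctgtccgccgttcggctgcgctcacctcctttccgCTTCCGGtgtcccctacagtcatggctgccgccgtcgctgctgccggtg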

How the data were processed

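The authors deposited a table of log2 values for 5 Illumina BeadArrays (11184 probes). Per the submitters' processing notes lumi 2.2.1 was among the tools, without a stated role. How background, transformation, normalization and probe filtering were handled is not given in the sources used here. The log base is inferred from the range of values, and centring and what sets the lower limit near 8 are unknown. A second, unnormalized table was not used because its 10 columns after the first match no sample label by name. The number of arrays limits the precision.

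Probes were named by a platform annotation, with symbols updated by Entrez identifier through RefSeq (GRCh38.p14): 10040 of 11184 probes had 1 symbol, 1 several and 1143 none, and 10039 were matched. Values were used as deposited, without a filter. The test across all 8127 genes used limma 3.58.1 under R 4.3.3 (lmFit, eBayes, group as the only term, 2-sided; 3 residual and 1.61 prior degrees of freedom; Benjamini-Hochberg adjustment). The fit was run on simulated data with independent normal noise, a check of the code that does not cover array effects in these data. Intervals are 95% confidence intervals.

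The members and lists were chosen with earlier results of these data known. Values on every array are given for up to 8 called genes a direction and for core genes (TOMM20, TOMM40, TOMM70, TIMM23, TIMM17A, TIMM44, TIMM22, SAMM50, CHCHD4, CHCHD2 and PHB1), and for GRPEL1 and PMPCB, added after their values were seen. Of lists outside the members, the called genes with the 3 largest differences are named. Alternatives were 3 other normalizations, a level filter, 2 other probe choices, a trended robust variance, a replicate block, a 2-fold threshold and each array left out.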

Additional observations from a re-analysis of the deposited data

How the results depend on the processing

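The count of 5 higher members became 3 after centring each array on its median, 3 with the replicate block and 2 with a 2-fold threshold, and ran from 2 to 4 with 1 array left out. The 9 lower members became 4 with the 2-fold threshold and ran from 4 to 10 with 1 array left out. Other settings raised the counts, to at most 7 higher (cyclic loess) and 11 lower (centring each array on its median). The cause of these changes was not tested, other than that the 2-fold threshold adds a criterion and leaving out an array removes samples. Over all genes, 1640 higher calls became 954 with the filter at a mean of 9, which tests fewer genes, and 958 to 1379 with 1 array left out, and 1215 lower calls became 638 to 1205. The trended robust variance gave more calls over all genes, 2143 higher and 1531 lower. Leaving out a pull-down array leaves 1, which is assumed to vary like the mock arrays.

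With the replicate number as a block, 3 members were higher and 7 lower, with a median difference of -0.05. The groups share only 2 numbers, so mock array 3 stands alone and the differences in the block fit equal those without it. The deviations of same-numbered arrays correlated at 0.04 and 0.12, so the numbers do not establish a pairing. PHB1, TIMM10B, CHCHD5, TOMM22 and TOMM34 had adjusted p = 0.123, 0.0875, 0.0653, 0.0538 and 0.0721 in that fit, and TOMM40 had 0.0257.

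No called member changed sign. Signs turned for 10 uncalled members with differences near 0. Centring gave GRPEL1 -0.035, TIMM23 -0.030, TOMM40L -0.033 and TOMM7 -0.038, quantile normalization gave TIMM17A 0.010 and TOMM40L -0.092, and cyclic loess gave TIMM10 0.050, TIMM8B -0.011 and TOMM40L -0.077. The replicate block gave TIMM22 -0.046, TIMM23 -0.024 and TIMM8B -0.00077, the same values as without mock array 3. With 1 array left out the ranges were -0.053 to 0.069 for GRPEL1, -0.18 to 0.14 for TIMM10, -0.019 to 0.0077 for TIMM17A, -0.046 to 0.27 for TIMM22, -0.066 to 0.086 for TIMM23, -0.16 to 0.016 for TIMM44, -0.032 to 0.18 for TIMM8B, -0.15 to 0.24 for TOMM20, -0.076 to 0.15 for TOMM40L and -0.045 to 0.046 for TOMM7. Signal over background limits TIMM17A and MICOS10, which were at the lower limit on all arrays.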
